A study of Mus musculus with 8 samples.

Results

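Exon-skipping junctions are spliced reads that pass from an exon block of a gene to a later block and leave out at least 1 numbered block between them. They were taken from a table of splice junctions by their identifiers alone: a row qualified when it joined 2 exon blocks of a gene whose numbers differ by 2 or more and had no intron-named side. This gave 12848 junctions in 6407 genes, 9.58% of the 134051 rows of the table. A junction written E5.1-E7.1 runs from block 5 to block 7 and skips block 6, and the digit after the point is a segment within the block.

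The cells were FT1CL, a mouse acute myeloid leukemia line. It was made from bone marrow of a mouse of genotype Cop1 cKO/Rosa26-Cre-ERT2, 8 weeks of age and given 5-fluorouracil, by transduction with a pMYs retrovirus carrying Trib1. The cells grew with interleukin-3. All libraries share the Trib1 vector and the origin of the line. The 4 wild-type libraries (Cop1 +/+ in the labels) came from untreated cells, and the 4 knockout libraries (Cop1 ko/ko) from cells given 4-hydroxytamoxifen, which activates Cre-ERT2. Genotype and drug changed together and cannot be told apart. Whether the libraries of a group are separate cultures, and whether the line is 1 clone, is not in the labels, so the p-values may rest on technical spread alone.

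Most genes of mammals can leave out some of their internal exons. The spliceosome then joins the exon before a cassette exon directly to the one after it, and the balance is set by the strength of the splice sites and by RNA-binding proteins such as SR proteins and hnRNPs. Where the skipped length is a multiple of 3 nucleotides the reading frame goes on, and otherwise it shifts, often into an early stop codon. COP1, a ubiquitin ligase, works with Tribbles proteins on transcription factors such as C/EBPα, and the comparison with and without Cop1 asks what changes in leukemia cells when it is removed.

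Junction totals ran from 17811247 to 20981993 reads in wild type and from 17333302 to 22469109 in knockout. Myeloid markers were read in all libraries (10 of 12 genes listed, Cebpa and Cebpb not), with summed levels of 2020 to 4673 RPM (junction reads scaled to a common library total) in wild type and 5611 to 8355 in knockout. Marker sums of B cells, T cells, erythroid cells and fibroblasts stayed at or under 11.3 RPM in each library. Cop1 itself gave no skipping junction: all 19 of its listed junctions join neighbouring blocks. The junction from block 2 to block 3 held 86, 92, 74 and 83 reads in wild-type libraries 1 to 4 and 19, 19, 24 and 22 in knockout libraries 1 to 4, so the groups did not overlap. This junction and E3.1-E4.1 fell most in proportion. The other Cop1 junctions fell less, as E14.1-E15.1 did, with 10.2 ± 0.779 RPM in wild type and 5.16 ± 0.357 in knockout. In bulk RNA, fewer cells of a type and less RNA per cell cannot be told apart.

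Below are the exons left out by 5 of the skipping junctions, chosen because each has 1 matched exon in Gencode M21 (build mm10) that lies in coding sequence. Their values are given further on, and the Cd44 exon is 1 of the variable exons inside the longer skip described there. Capitals mark the skipped exon, and the 15 lower-case bases on each side belong to the exons that the skipping junction joins. All are given 5′ to 3′ on the strand of the gene.

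Rac1 E5.1-E7.1, chr5:143509597-143509653, minus strand, 57 nt: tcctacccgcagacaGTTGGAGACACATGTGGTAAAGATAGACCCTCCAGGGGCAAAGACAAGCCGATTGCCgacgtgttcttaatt

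Hnrnpd E6.2-E8.1, chr5:99963731-99963877, minus strand, 147 nt: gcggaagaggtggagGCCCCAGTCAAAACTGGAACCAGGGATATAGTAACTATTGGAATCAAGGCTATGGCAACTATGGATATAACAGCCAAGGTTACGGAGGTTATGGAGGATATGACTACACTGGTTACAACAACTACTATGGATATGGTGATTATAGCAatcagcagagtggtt

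Cd44 E11.1-E13.1, chr2:102837813-102837938, minus strand, 126 nt: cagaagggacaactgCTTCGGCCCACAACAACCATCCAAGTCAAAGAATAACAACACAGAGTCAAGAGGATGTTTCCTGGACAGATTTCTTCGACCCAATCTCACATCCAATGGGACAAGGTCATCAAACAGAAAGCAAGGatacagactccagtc

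Akr1c18 E3.1-E5.1, chr13:4143218-4143295, minus strand, 78 nt: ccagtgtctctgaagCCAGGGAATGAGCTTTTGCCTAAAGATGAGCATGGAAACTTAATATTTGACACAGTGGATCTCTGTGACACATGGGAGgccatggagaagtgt

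Pdxdc1 E25.2-E27.1, chr16:13836386-13836615, minus strand, 230 nt: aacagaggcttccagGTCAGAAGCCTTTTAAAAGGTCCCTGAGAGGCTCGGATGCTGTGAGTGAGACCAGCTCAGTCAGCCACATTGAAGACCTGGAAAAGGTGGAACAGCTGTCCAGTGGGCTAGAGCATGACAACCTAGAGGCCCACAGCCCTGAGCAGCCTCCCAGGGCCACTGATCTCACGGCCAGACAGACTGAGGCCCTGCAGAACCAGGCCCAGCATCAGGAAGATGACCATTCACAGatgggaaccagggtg

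The first 4 of these exons are whole numbers of codons (19, 49, 42 and 26), so skipping them keeps the frame. That of Pdxdc1 leaves 2 nucleotides over and shifts it. The exon of Hnrnpd codes for part of the glycine- and tyrosine-rich tail of the protein.

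Skips were mostly short. Of the 12848 junctions, 9484 (73.8%) skipped 1 block, 2160 skipped 2, 716 skipped 3, 273 skipped 4 and 215 skipped 5 or more. Only 17 skipped 10 or more. The longest, in Ubr4 (a ubiquitin ligase of the N-degron pathway), ran from block 1 to block 68 over 66 blocks and held 6, 5, 3 and 1 reads in wild type and 4, 0, 5 and 14 in knockout. Several other long skips were read often. Firre, a long non-coding RNA gene, had 456, 439, 324 and 299 reads across 16 blocks in wild type and 414, 349, 360 and 309 in knockout. That junction took 55.7 ± 0.775% of the gene's junction reads in wild type against 54.5 ± 2.47% in knockout (SD, n = 4). Cux1, a homeobox transcription factor, had 741, 667, 711 and 903 reads across 12 blocks in wild type and 415, 319, 452 and 654 in knockout, with 4.87 ± 0.18% and 4.98 ± 0.309% of the gene's reads. So the reads in Cux1 were fewer in every knockout library, while the junction's part of the gene was within the spread.

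Read depth was uneven among the junctions. The mean over the 8 libraries had a median of 19.4 reads, against 49.0 for the 114825 junctions between neighbouring blocks, and 3022 skipping junctions averaged under 5 reads. At the other end 142 averaged 1000 or more. Ubb, a polyubiquitin gene, had the most: its E1.1-E3.1 junction held 15300, 13820, 13194 and 12819 reads in wild type and 19845, 17063, 18252 and 20134 in knockout, and took 99.7 ± 0.114% and 99.7 ± 0.075% of the gene's junction reads. The skipping junction is thus the gene's usual splice, as it also is in Rack1 (a ribosomal scaffold), Tmsb4x (an actin-binding peptide) and Cdc42 (a small GTPase). In Cdc42, E5.1-E8.1 held 77.5 ± 0.581% of the gene's reads in wild type and 78.5 ± 0.873% in knockout. The junctions were spread over many genes: 3241 genes had 1 and 409 had 5 or more, up to 14 in Agtpbp1, which codes for an enzyme that trims glutamate from tubulin.

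Whether a skip can be weighed against inclusion depends on what else is listed for the gene. For 4032 skipping junctions (31.4%) the table holds at least 1 junction entering the skipped blocks from upstream and 1 leaving them downstream. For 1019 it holds only entering ones, for 2350 (18.3%) only leaving ones, and for 5447 (42.4%) neither. The junctions with neither side had the higher median, 28.0 reads against 11.6 for those with both.

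The total frequency of skipping differed between knockout and wild type by less than the spread of the libraries. The skipping junctions held 5.72, 5.78, 5.69 and 5.92% of exon junction reads in wild-type libraries 1 to 4 and 5.76, 5.76, 5.83 and 5.84% in knockout libraries 1 to 4. The means were 5.77 ± 0.104% and 5.80 ± 0.042% (SD, n = 4, exact permutation test, two-sided, p = 0.771). Among junctions with only leaving reads the groups did not overlap, at 1.34, 1.33, 1.31 and 1.27% in wild type and 1.38, 1.36, 1.38 and 1.35% in knockout. Their exact permutation p of 0.029, the smallest that 4 against 4 can give, became 0.171 after Benjamini-Hochberg adjustment over the 6 library measures compared. The other 3 classes overlapped (exact permutation p 0.457 to 0.971, adjusted 0.914 to 0.971).

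**Figure D1:**
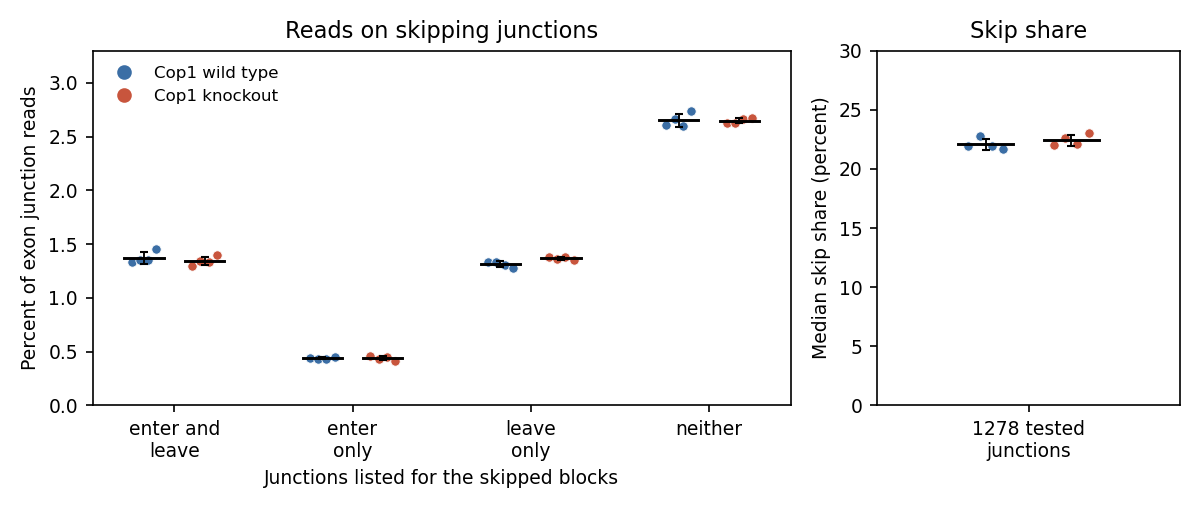
Left, percent of exon junction reads on skipping junctions in each library (points), by which junctions of the skipped blocks the table lists; right, each library's median skip share over the 1278 tested junctions. Bars are means with SD over 4 libraries; the leave-only class runs from 1.27 to 1.34% in wild type and from 1.35 to 1.38% in knockout, and in the other classes and the median share the groups overlap.

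For junctions with both sides, the skip share was taken as the skipping reads over the sum of skipping reads and competing reads, where competing reads are the mean of those entering and those leaving the skipped blocks. Of the 4032 junctions, 1147 had a mean under 5 skipping reads, 1352 more had under 20 competing reads, and 255 more used a junction with a value far below the rest of its gene. That last filter took no account of group, so junctions near 0 in all libraries of 1 group could also be left out. The remaining 1278 junctions of 994 genes were tested. Their mean skip shares had a median of 22.7% and quartiles of 10.7 and 49.9%, with 138 under 5%, 320 (25.04%) over 50% and 19 over 95%. The number of blocks skipped made little difference to the level, with median shares of 22.1% for 1 block (824 junctions), 22.995% for 2 (270) and 23.7% for 3 or more (184). Each library's median share was 21.6 to 22.8% in wild type and 22.0 to 23.01% in knockout (means 22.1 ± 0.474% and 22.4 ± 0.471%, SD, n = 4, exact permutation p = 0.257).

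Skipping that keeps the reading frame reached higher shares than skipping that shifts it. Of the tested junctions, 343 left out a coding stretch that Gencode M21 gives in 1 form. Its length was a multiple of 3 in 215 (62.7%), close to the 61.2% among all 1216 skipping junctions so matched, tested or not. The median skip share was 21.2% (quartiles 9.39 and 44.2%) for multiples of 3 and 11.2% (5.59 and 20.9%) for other lengths. Shares over 50% were found in 48 of 215 (22.3%) against 8 of 128 (6.25%), and shares under 5% in 28 (13.02%) against 30 (23.4%). The stretches had like lengths, with medians of 117 and 110 nt. These are descriptions over junctions, which are not replicates of a condition, and no test was made. An unadjusted limma p under 0.05 between the groups was about as frequent in either class, 9 of 215 (4.19%) and 6 of 128 (4.69%).

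**Figure D2:**
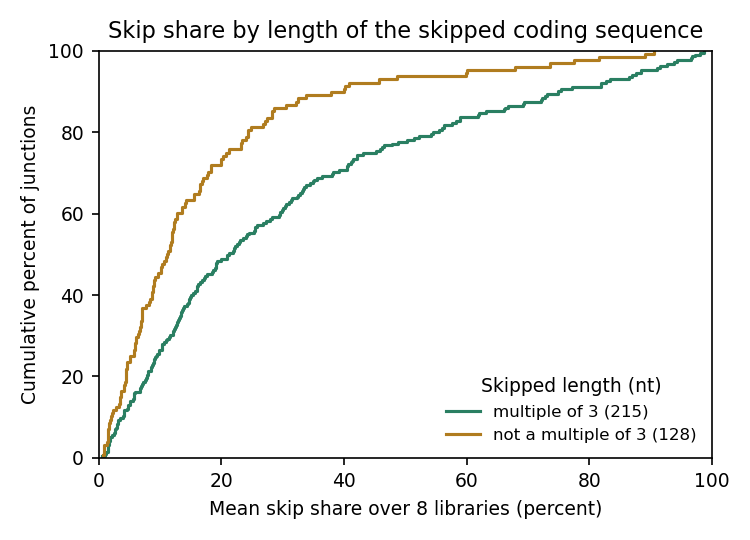
Cumulative percent of junctions (vertical axis) at or below each mean skip share over 8 libraries (horizontal axis, percent), for 215 skipped coding stretches whose length is a multiple of 3 and 128 whose length is not. The curve for other lengths rises earlier, with medians of 11.2 and 21.2%.

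Across the 1278 junctions, 1 passed the test between knockout and wild type, with a higher ratio of skipping to competing reads in knockout. It was in Oxr1. The test was limma on log2 of skipping over competing reads, adjusted by Benjamini-Hochberg over 6188 junctions of the whole table at 0.05, and 0 were called lower. The other 4910 of these skip no block. Their competing reads were the sum over junctions of the gene that overlap them, so rates over all junctions tested rest partly on a different ratio. Calls were also rare among all 6188 junctions tested, the skipping ones included: 13 higher (0.21%) and 7 lower (0.113%), 20 in all (0.323%). By edgeR's quasi-likelihood test on the reads, 0 skipping junctions were called, with 86 at an unadjusted p under 0.05. In limma 73 (5.71%) had an unadjusted p under 0.05, 38 higher and 35 lower, against 7.29% of all junctions tested. The 4 + 4 shares did not overlap in 51 (3.99%), against 4.86% of all junctions tested, and 35 of the 51 differed by at least 5 percentage points. Log2 ratios were positive in 636 of 1278, with a median of -0.0011 against 0.01 over all tested.

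The precision of these shares sets what could be seen. The median difference between group means was 2.40 percentage points in size and the 90th percentile 9.89, while the SD within a group had a median of 4.34 points in wild type and 4.38 in knockout. The standard error of a log2 ratio had a median of 0.43. Changes of a few points in skipping were therefore not detectable with this spread between libraries for most of these junctions.

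**Figure D3:**
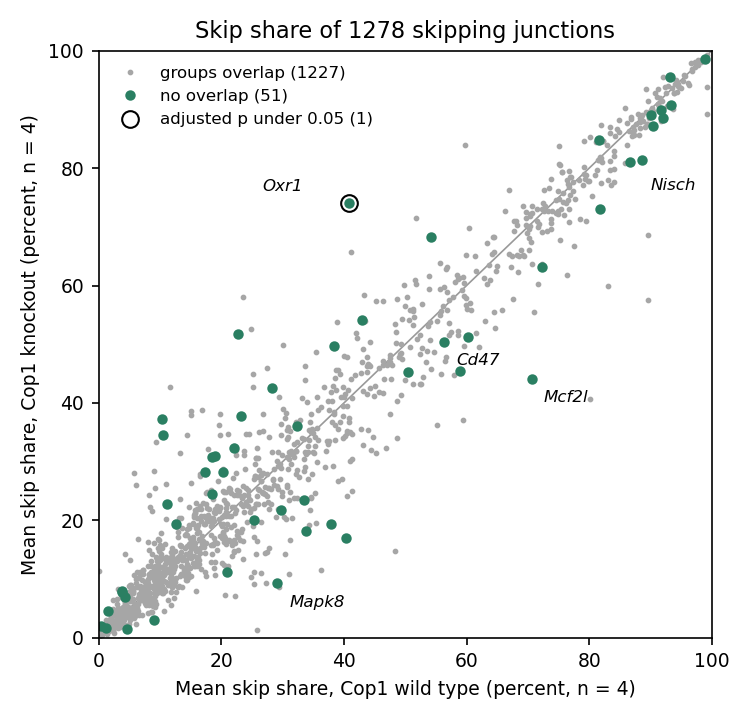
Mean skip share in wild type (horizontal axis) against knockout (vertical axis), in percent over 4 libraries each, for 1278 skipping junctions, with the line of equality. Green points are the 51 junctions whose libraries do not overlap between groups, and the ring marks the Oxr1 junction, at 40.8 and 74.0%.

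Oxr1 codes for a TLDc-domain protein that protects cells from oxidative stress. Its junction E16.1-E20.1, which skips blocks 17 to 19, had skip shares of 33.2, 37.6, 59.1 and 33.1% in wild-type libraries 1 to 4 and 73.9, 78.4, 71.5 and 72.4% in knockout libraries 1 to 4. Every knockout library was above every wild-type one, and wild-type library 3 stood closest to them. The means were 40.8 ± 12.4% and 74.0 ± 3.08% (SD, n = 4), a log2 ratio higher by 2.06 (SE 0.32, limma adjusted p = 0.0101). The call ended without knockout library 2 (adjusted p = 0.0509), without both libraries numbered 4 (0.0596), with the junctions that hold dropped values kept in the fit (0.073), and in edgeR (0.109), each with the direction kept.

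The reads behind the Oxr1 share came from few junctions. Skipping reads numbered 43, 38, 78 and 29 in wild type and 147, 109, 124 and 88 in knockout. Among the competing junctions, E18.2-E20.1, itself a skipping junction, leaves block 18 and held 120, 94, 44 and 106 reads in wild type and 15, 7, 26 and 40 in knockout. No junction entering block 18 is listed. Block 19 was entered by E16.1-E19.1, with 19, 11, 25 and 2 reads in wild type and 35, 18, 21 and 7 in knockout, and left by E19.1-E20.1, with 34, 21, 39 and 9 against 54, 35, 52 and 20. For both junctions of block 19 the groups overlapped. All leaving reads together were 154, 115, 83 and 115 in wild type and 69, 42, 78 and 60 in knockout, without overlap. E16.1-E19.1 was the only entering junction counted, so the entering reads overlapped. Leaving reads outnumbered entering ones in every library, so the share mostly weighed the skip against reads leaving blocks 18 and 19. Against the entering reads alone, the proportion of skipping reads overlapped between the groups. E18.2-E20.1 thus held most of the leaving reads in the wild-type libraries and in knockout library 4, and E19.1-E20.1 in knockout libraries 1 to 3. The 2 junctions that end at block 20 from block 18 and from block 16 therefore exchanged their order: 4.75 ± 1.66 against 2.46 ± 1.13 RPM in wild type, and 1.06 ± 0.616 against 5.94 ± 1.41 RPM in knockout. E18.2-E20.1 on its own, tested against the mean of the reads entering and leaving block 19, did not pass (log2 ratio -2.90, SE 0.95, limma adjusted p = 0.519). The reads of E16.1-E20.1 were not among its competing reads. All 17 Oxr1 junctions together gave 25.9 ± 5.77 RPM in wild type against 43.1 ± 17.3 in knockout. Measured against the rest of the gene in place of the skipped blocks, E16.1-E20.1 differed by 0.70 and gave no call (limma diffSplice adjusted p = 1.0).

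**Figure D4:**
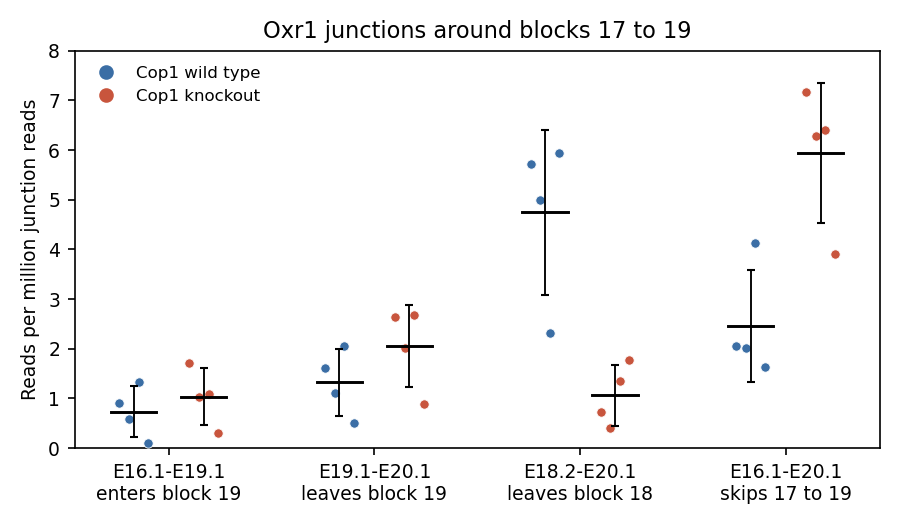
RPM (junction reads scaled to a common library total, vertical axis) on 4 Oxr1 junctions (points are libraries, bars means with SD over 4 libraries). E18.2-E20.1 lies at 4.75 in wild type and 1.06 in knockout on average, and E16.1-E20.1 at 2.46 and 5.94.

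The next junctions by p did not pass, and they are given as values, chosen after these were seen. Cd47, the receptor that signals to phagocytes not to engulf the cell, was read most deeply among them. Its E2.2-E4.1 junction, which skips block 3, had shares of 57.8, 55.3, 56.7 and 55.6% in wild type and 50.6, 49.3, 52.4 and 49.4% in knockout. The groups did not overlap, and the means of 56.4 ± 1.15% and 50.4 ± 1.46% (SD, n = 4) differed by 5.92 points (log2 ratio -0.34, SE 0.08, limma adjusted p = 0.122). Both forms were more abundant in knockout. Skipping reads were 37.9 ± 3.88 RPM in wild type against 66.6 ± 9.99 in knockout, and those of E3.1-E4.1, leaving block 3, were 30.6 ± 2.82 and 70.2 ± 9.13 RPM. The whole gene gave 604 ± 36.9 and 1113 ± 169 RPM.

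Hnrnpd codes for AUF1, an RNA-binding protein that controls the decay of AU-rich messages, and its 147 nt exon is present in the longer protein forms. Skipping of this exon was rare, with shares of 1.90, 1.45, 1.77 and 1.20% in wild type and 2.12, 4.64, 7.32 and 4.41% in knockout. The skipping reads were 24, 16, 18 and 13 against 16, 31, 48 and 38, so knockout library 1 had no more of them than wild type, while fewer reads entered and left the exon there. Means were 1.58 ± 0.317% and 4.62 ± 2.12% (SD, n = 4, log2 ratio 1.47, SE 0.35, limma adjusted p = 0.122, and 0.0238 to 0.469 with 1 library left out). Without knockout library 1 the adjusted p was 0.0238. Reads entering the exon were 68.7 ± 4.09 RPM in wild type against 41.6 ± 2.65 in knockout, and the gene gave 523 ± 25.8 and 341 ± 25.9 RPM.

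Dcaf17, a substrate receptor gene of the CUL4 ligases, had lower values in knockout. Its E5.2-E7.1 junction had shares of 25.3, 32.6, 33.3 and 43.8% in wild type and 17.7, 20.8, 16.1 and 18.01% in knockout. The means of 33.7 ± 7.61% and 18.2 ± 1.96% (SD, n = 4) gave a log2 ratio of -1.17 (SE 0.27, limma adjusted p = 0.105). The gene as a whole was level, at 40.1 ± 3.09 and 40.1 ± 2.35 RPM. The exon skipped is annotated at chr2:71066124-71066237 (114 nt) and is not wholly coding.

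Genes of metabolism and transport stood among the non-overlapping junctions without a call. In Ogdh, the 2-oxoglutarate dehydrogenase of the citric acid cycle, E4.3-E8.1 had shares of 40.9, 42.1, 39.8 and 31.0% in wild type and 49.3, 50.2, 54.7 and 44.3% in knockout (log2 ratio 0.66, SE 0.20, limma adjusted p = 0.35). On the route through block 5, E5.1-E8.1 held 9.15 ± 0.963 RPM in wild type and 7.08 ± 0.356 in knockout, and E3.3-E5.1, which enters block 5, held 8.13 ± 1.36 and 5.88 ± 0.832. In Slc2a1, the glucose transporter GLUT1, skipping of the 163 nt exon was at 3.62, 4.98, 3.05 and 3.37% in wild type and 8.31, 5.95, 9.79 and 7.80% in knockout, on 5 to 12 and 24 to 41 skipping reads (log2 ratio 1.09, SE 0.33, limma adjusted p = 0.36). Pdxdc1, named for a pyridoxal-dependent decarboxylase domain, had 16.6, 28.0, 30.5 and 18.03% against 42.0, 40, 37.2 and 31.6%. Its log2 ratio of 1.02 (SE 0.35) did not pass either (limma adjusted p = 0.467). The reads entering the exon were 132, 3, 3 and 116 in wild type and 1, 1, 2 and 2 in knockout, and the wild-type libraries with 3 had the higher shares of their group. The reads leaving it were 69, 100, 70 and 84 against 93, 80, 79 and 119. Pdxdc1 was not tested when values that far below their gene were set aside from 30 predicted reads on.

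Nisch, Mcf2l and Abl1 also had shares that did not overlap, without a call. Nisch, an integrin-binding scaffold, had 86.5, 88.4, 90.1 and 89.4% at E15.4-E19.2 in wild type and 80.05, 78.4, 81.3 and 85.5% in knockout (limma adjusted p = 0.191). Its entering reads were 11, 11, 8 and 20 in wild type and 41, 43, 24 and 23 in knockout. The leaving reads were more, at 94, 65, 54 and 49 against 123, 116, 157 and 122. Mcf2l, a guanine nucleotide exchange factor, lay below the wild-type range in all 4 knockout libraries: 70.1, 82.6, 64.7 and 65.1% against 53.4, 32.3, 50 and 40.9% (limma adjusted p = 0.27). It rested on 10 to 48 skipping reads a library. The leaving reads of Mcf2l were 31, 8, 20 and 27 in wild type and 61, 40, 51 and 76 in knockout, without overlap. Its entering reads were few, at 10, 8, 4 and 2 against 7, 2, 1 and 2, and the groups overlapped. Abl1, the tyrosine kinase of the BCR-ABL fusion, had 53.5, 59.6, 57.4 and 46.4% at E4.6-E13.1 in wild type and 71.1, 62.4, 64.9 and 74.4% in knockout (limma adjusted p = 0.467). The skipping reads of Abl1 were 2.96 ± 0.318 and 2.99 ± 0.767 RPM, while those of E11.2-E13.1, which leaves block 11, were 3.75 ± 1.19 and 1.89 ± 0.229 RPM. So the level of the Abl1 skip was alike in both groups, and the competing reads were fewer in knockout through the leaving side. Reads leaving the skipped blocks were 107, 57, 76 and 113 in wild type and 43, 43, 48 and 50 in knockout. Those entering were 11, 8, 13 and 5 against 9, 4, 6 and 12, and the groups overlapped.

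**Figure D5:**
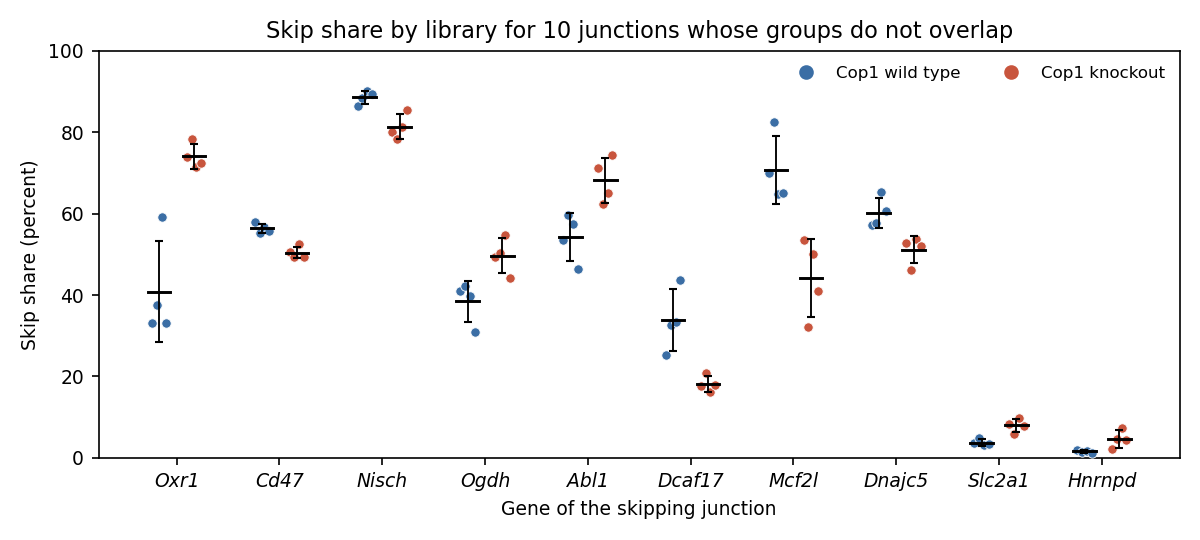
Skip share (percent) in each library for 10 junctions whose 4 wild-type and 4 knockout values do not overlap, named by gene; points are libraries, bars means with SD. Only the Oxr1 junction passed the test, and the SDs run from 0.317 points (Hnrnpd, wild type) to 12.4 points (Oxr1, wild type).

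A further 10 non-overlapping junctions had adjusted p-values of 0.35 to 0.558 in limma. Ubap2l, Reps1, Dnajc5, Mapk8, Ccnl2, Kmt5a and Adprm had lower skip shares in knockout, by 8.71 points in Ubap2l up to 19.8 points in Mapk8. Mctp1, Vwa5a and Smarca2 had higher ones, by 10.4 to 14.3 points. Mapk8, the kinase JNK1, had 31.0, 32.7, 19.2 and 33.3% against 5.26, 14.5, 6.67 and 10.8% on only 2 to 12 skipping reads. Of the 2 junctions counted against it, E8.3-E9.2 held 48, 1, 1 and 1 reads in wild type and 39, 33, 32 and 69 in knockout. E6.1-E8.1 held 1, 36, 41 and 47 against 33, 38, 24 and 63. Each wild-type library thus had 1 of these junctions at 1 read, which lowered its competing reads and raised its share. In Adprm the leaving reads were 42, 1, 3 and 33 in wild type and 33, 39, 62 and 48 in knockout, and wild-type libraries 2 and 3 had the highest shares. In Vwa5a they were 179 in wild-type library 2 and 1 to 10 in the other 7. Those of Ccnl2 were few, at 1, 10, 2 and 3 in wild type and 4, 9, 8 and 13 in knockout. Its entering reads were 121, 104, 75 and 80 against 124, 128, 125 and 135, so its competing mean rested almost on the entering side alone. With low values set aside from 30 predicted reads on, Mapk8, Smarca2, Kmt5a and Adprm were not tested. Smarca2, an ATPase of SWI/SNF chromatin remodelling, had 8.84, 14.8, 9.27 and 11.8% against 27.8, 29.6, 18.6 and 14.97%.

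In a list of 67 splicing regulators, 57 genes had 136 skipping junctions, of which 49 could be tested, with 0 called in either direction, 2 higher and 2 lower at an unadjusted p under 0.05, and a median log2 ratio of 0.04 (median of all tested skipping junctions -0.0011). With 1 call among 1278 tested skipping junctions, a count of 0 in this list or the lists below sets none of them apart. The 159 nt exon of Hnrnpa1 was skipped at 88.4, 88.3, 88.8 and 87.3% in wild type and 89.1, 87.6, 89.4 and 88.1% in knockout, on 2391 to 4819 skipping reads a library. Its means of 88.2 ± 0.65% and 88.6 ± 0.848% (SD, n = 4) lay within the spread (log2 ratio 0.05, SE 0.09). Hnrnpa2b1 E7.1-E9.1 was at 26.5 ± 1.09% and 26.6 ± 1.43% (log2 ratio 0.01, SE 0.07).

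U2af1, the factor that reads the 3′ splice site, has a pair of alternative exons that both routes show. E2.1-E4.1, skipping block 3, held 800, 646, 728 and 705 reads in wild type and 616, 546, 480 and 694 in knockout, and E3.1-E5.1, skipping block 4, held 158, 153, 120 and 165 against 84, 94, 96 and 145. Their shares were 82.2 ± 2.41% and 84.6 ± 1.81% for the first, and 18.3 ± 2.32% and 15.8 ± 2.32% for the second (SD, n = 4, limma adjusted p 0.754 and 0.75). Each library thus held about the same mix. Clk1, a kinase of SR proteins, varied too much within the groups to be read in this way. Its E3.2-E5.1 junction held 1, 55, 46 and 39 reads in wild type and 1, 112, 84 and 5 in knockout. Libraries of the same group thus ran from nearly none to the highest. The junction was tested and gave no call (log2 ratio -0.35, SE 2.00, limma adjusted p = 0.993).

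In the list of hematopoietic and immune genes, 41 of 57 genes had 98 skipping junctions, and 21 were tested, with 0 called, 1 higher and 1 lower at an unadjusted p under 0.05, and a median log2 ratio of 0.09. Ikzf1, the lymphoid and myeloid factor Ikaros, had E5.2-E7.1 at 89.3 ± 2.68% in wild type against 93.4 ± 1.18% in knockout (SD, n = 4, log2 ratio 0.74, SE 0.30, limma adjusted p = 0.616). Pecam1, an adhesion receptor with alternative exons in its cytoplasmic tail, was at 53.7 ± 1.18% and 53.1 ± 3.26% for E14.1-E17.1. Cd44, the hyaluronan receptor, skips its variable exons in most blood cells. Its E5.1-E16.1 junction passed over 10 blocks (intron chr2:102828611-102853014) with 120, 132, 117 and 41 reads in wild type and 291, 344, 315 and 27 in knockout. The libraries numbered 4 were the lowest of their groups, and the share was 90.5 ± 1.66% and 89.8 ± 6.69%, so most reads passed over the variable exons in both groups. The exon printed above is skipped within that region by E11.1-E13.1, which held 2, 7, 7 and 0 reads in wild type and 12, 12, 11 and 2 in knockout.

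Ptprc, which codes for the phosphatase CD45, skips its variable exons in several steps from block 5. E5.1-E8.1 held 96, 86, 73 and 73 reads in wild type and 159, 171, 140 and 161 in knockout, with no overlap, but 0.915 ± 0.127% and 1.08 ± 0.201% of the gene's junction reads, and the whole gene gave 473 ± 63.6 and 758 ± 161 RPM. The shorter skip E5.1-E7.1 held 2, 3, 175 and 1 reads in wild type and 2, 197, 1 and 123 in knockout. E5.1-E7.1 could not be tested in any case, as no junction entering or leaving its skipped block is listed. It enters the blocks that E5.1-E8.1 skips. Such values, near 0 in some libraries and over 100 in others of the same group, kept E5.1-E8.1 out of the test. The same was seen beside Runx1, a core factor of blood formation. Its E7.1-E9.1 skip held 265, 208, 161 and 175 reads in wild type and 223, 143, 177 and 283 in knockout, but E7.1-E8.1, which enters the skipped block, held 429, 356, 348 and 286 against 1, 287, 367 and 1. Over all skipping junctions, 1553 values lay that far below the rest of their gene, and 609 junctions had at least 1 such value of their own.

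Chromatin and metabolic genes from a list of 36 had 95 skipping junctions in 30 genes, 18 tested, 0 called, 1 higher and 1 lower at an unadjusted p under 0.05, and a median log2 ratio of -0.02. H2afy, the histone variant macroH2A1, has alternative exons that give its known forms. E7.2-E10.2 had shares of 15.04 ± 0.884% in wild type and 15.2 ± 2.71% in knockout, while the gene gave 204 ± 44.5 and 123 ± 12.5 RPM. Bptf, a chromatin remodeller, had 86.6 ± 2.83% and 81.0 ± 1.55% at E4.1-E7.1, without overlap (log2 ratio -0.61, SE 0.28, limma adjusted p = 0.669). Rps24, a ribosomal protein with tiny alternative exons near its end, had 7042, 6215, 5651 and 6146 reads on E4.1-E7.2 in wild type and 7175, 5897, 7033 and 7293 in knockout, at 17.6 ± 0.248% and 17.7 ± 0.416% of the gene's reads.

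Cytoskeletal, adhesion and trafficking genes had 224 skipping junctions in 55 of 62 genes, and 39 were tested. None was called, 1 was higher and 2 were lower at an unadjusted p under 0.05, and the median log2 ratio was -0.02. Rac1 is a small GTPase whose 57 nt exon makes the self-activating form Rac1b. The exon was skipped at 96.7, 97.7, 98.1 and 96.5% in wild type and 96.8, 97.7, 96.9 and 97.4% in knockout, on 801 to 1052 skipping reads and a mean of 26.6 competing ones. Clta, a clathrin light chain, left out its neuronal exons at 98.7 ± 0.115% and 98.5 ± 0.318% (SD, n = 4). Both genes therefore showed almost only the short form in these cells.

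Apoptosis and p53 genes were thinly covered: 15 of 23 genes had 28 skipping junctions and 2 were tested, 0 of them called, with 0 at an unadjusted p under 0.05. Mdm2, the ubiquitin ligase of p53, had 2.22, 4.43, 2.87 and 3.37% at E6.2-E8.1 in wild type and 1.62, 6.23, 2.68 and 2.20% in knockout, on 4 to 16 skipping reads. Cflar, the inhibitor of caspase 8, had 4.26, 4.65, 26.0 and 4.94% against 7.41, 34.1, 13.3 and 8.60%. In Fas, the death receptor, the exon-skipping junction E2.1-E4.1 held 3, 7, 3 and 7 reads in wild type and 15, 31, 24 and 10 in knockout, while its part of the gene's reads was 10.99 ± 4.19% and 12.1 ± 4.44%. The COP1 ligase and Tribbles list had 10 skipping junctions in 5 of 19 genes, and 0 could be tested. Cul4a, the scaffold of that ligase, had E2.1-E16.1 over 13 blocks at 140, 168, 114 and 1 reads in wild type and 128, 107, 104 and 152 in knockout.

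The 6 tested skips with the most reads, Hnrnpa1 among them, had shares of 87.3% or more in every library. Naca E2.1-E4.1 passes over a single exon of 5916 nt (chr10:128039171-128045086, coding) that is known from the muscle form of this nascent-chain factor. It was skipped at 98.8, 98.8, 98.9 and 98.8% in wild type and 98.6, 98.5, 98.5 and 98.8% in knockout, a difference of 0.24 points without overlap (log2 ratio -0.27, SE 0.17, limma adjusted p = 0.747). Eef1g, an elongation factor subunit, was at 99.3 ± 0.148% and 99.3 ± 0.0962%, Morf4l1, a chromatin reader, at 95.4 ± 0.372% and 94.9 ± 0.209%, and Serinc3, a membrane protein, at 91.4 ± 0.417% and 90.4 ± 0.884% (SD, n = 4). Serpinb1a, an inhibitor of neutrophil proteases, kept its skip share at E4.1-E6.1 within the spread, 95.4 ± 0.797% and 95.9 ± 0.497%, while the gene's reads were 158 ± 26.3 and 901 ± 326 RPM.

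Junctions without both sides could be compared only with the rest of their gene. In limma's diffSplice over 102231 junctions, with the skipping junctions 9079 of these, 35 were called higher and 33 lower (0.749%), against 0.262% higher and 0.246% lower in the whole table (0.508%). This test gives all junctions of a gene 1 variance, and 45 of the 68 called averaged under 20 reads. In 22 of the 68 the groups did not overlap in their part of the gene's reads. The same count was not made over all 102231 junctions, so it does not set the skipping junctions apart. The examples that follow were chosen after their values were seen.

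Sept9, a septin of the cytoskeleton, had E6.1-E10.1 at 20, 26, 15 and 16 reads in wild type and 103, 64, 43 and 52 in knockout (diffSplice log2 difference 1.77, adjusted p = 7.18e-04). Every knockout library was higher, although all junctions of the gene together were level at 244 ± 37.0 and 243 ± 24.0 RPM. The junction E5.3-E10.1, which starts 1 block earlier, held 12.9 ± 2.54 and 13.7 ± 3.36 RPM, and E9.2-E10.1 held 12.2 ± 2.58 and 9.64 ± 1.01 RPM. E8.1-E10.1 held 4.08 ± 0.15 and 3.09 ± 0.577 RPM, lower in each knockout library than in each wild-type one. Of the 4 routes listed into block 10, those from blocks 6 and 8 thus had no overlap in RPM, in opposite directions, and those from blocks 5 and 9 overlapped. Ugp2, which makes UDP-glucose, had E2.1-E4.1 at 23, 9, 24 and 28 reads against 131, 166, 174 and 71 (log2 difference 1.67, diffSplice adjusted p = 0.00177), or 1.56 ± 0.732% and 4.69 ± 1.25% of the gene's reads.

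Other junctions took a smaller part of their gene in knockout. Tle6, a Groucho-family corepressor, had E6.1-E8.3 at 30, 26, 22 and 19 reads in wild type and 3, 6, 2 and 7 in knockout (log2 difference -2.72, diffSplice adjusted p = 0.0218). Pacsin2, a membrane-bending protein, had E2.3-E4.1 at 49, 59, 32 and 40 against 22, 7, 26 and 15 (-1.35, diffSplice adjusted p = 4.25e-06). Gon4l E8.1-E10.1, with 73, 93, 2 and 68 reads against 1, 1, 1 and 2, was also called, and its wild-type library 3 was at the knockout level. Senp6 E1.5-E3.1 was called higher on the 92 reads of knockout library 1, while the other 3 knockout libraries held 7 to 10 and wild type 5 to 7.

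Akr1c18, an aldo-keto reductase that inactivates progesterone, joined both views. Its 78 nt exon was skipped by 1, 0, 10 and 0 reads in wild type and 60, 60, 51 and 48 in knockout. All its junctions together gave 13.02 ± 5.93 and 63.1 ± 18.1 RPM, and the skip share was 3.45, 0, 17.2 and 0% against 18.4, 13.03, 10.6 and 11.02%. Wild-type library 3 was inside the knockout range, and the ratio test gave no call (log2 ratio 1.56, SE 0.64, limma adjusted p = 0.616), while diffSplice did (log2 difference 3.37, adjusted p = 0.041).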

How the data were processed

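RNA of 8 libraries was deposited as a splice-junction table with AltAnalyze identifiers. Tools named in the submitters' processing notes are Trimmomatic 0.39 and kallisto, with build mm10; a junction caller is not given in the sources used here. The deposited values are a normalised signal, and 100% were whole reads (within 0.001) once the library scale and a length of 60 nt were undone and 1 read subtracted. The floor value that stands for 0 reads is shared by all libraries, and in knockout libraries 2 and 4 it is not near a whole step, so 0 was read from the floor there. Log2((skipping + 0.5)/(competing + 0.5)) was tested with limma 3.58.1 (trend, robust) at means of at least 5 skipping and 20 competing reads, leaving out junctions with a value of at most 6 reads where the rest of the gene predicted at least 100. The prediction used the junction's second-highest ratio to the rest of its gene over all 8 libraries, without regard to group. Junctions near 0 in all libraries of 1 group and high in the other could therefore also be left out. For diffSplice the same rule was applied to the junction itself. edgeR 4.0.16 on the recovered read counts and limma's diffSplice were alternatives. The ratio test was also run on simulated reads, with the same spread setting for every junction and no dropped values. That run therefore does not show how the test does on junctions that vary as Clk1 E3.2-E5.1 did. Blocks were matched to Gencode M21 where every block pair read was annotated in that numbering (3653 of 6387 genes, 57.2%). Junctions were named if changed with no overlap and at least 5 points, by lowest p (up to 4) or most reads (up to 2) per list, or among the 6 with most reads; others are stated as chosen afterwards. Members and lists were chosen with earlier results of these data known. Some items are not reported here.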

Additional observations from a re-analysis of the deposited data

Results flagged for a closer look

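In 3 of the 72 groups of 4 libraries examined for a library far from the rest, 1 library stood apart, where chance gives about 1 in 20. All 3 were wild-type library 3. Its skip share was 19.23% for Mapk8 E7.1-E9.2, where the others ran from 31.0 to 33.3%. For Ccnl2 E5.2-E8.1 it was 69.08% against 55.1 to 56.1%, and for Cflar E1.7-E6.1 26.02% against 4.26 to 4.94%. The Mapk8 and Cflar values rest on 5 and 16 skipping reads.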

How the results depend on the processing

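The calls were few and moved with the settings. Against 1 higher and 0 lower, keeping dropped values gave 0 higher, calling values dropped from 30 predicted reads on (an alternative chosen after seeing the data) gave 2 higher and 1 lower, leaving out both libraries numbered 4 gave 0 higher and 1 lower, edgeR gave 0 higher, and use against the rest of the gene gave 35 higher and 33 lower. With 1 library left out the counts ran from 0 to 2 higher and 0 to 1 lower. With the replicate number as a block there were 1 higher and 2 lower. Same-numbered libraries deviated together only weakly (correlations 0.0343 to 0.0618), so the numbers were not taken to pair the libraries, and the block is given here once. Its p-values for the total and median share were 0.75 and 0.375.

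Under the rule of 30 predicted reads, Dcaf17 and Hnrnpd passed (adjusted p = 0.036 for each) beside Oxr1 (6.45e-04). The Oxr1 call was lost with dropped values kept (0.073). The difference in total skipping, 0.0252 points, turned to -0.0215 without the 10 genes with most skipping reads, and ran from -0.0042 to 0.0738 with 1 library left out. That in median share, 0.368 points, turned to -0.0467 under the rule of 30 reads and ran from 0.175 to 0.595 with 1 library left out. Log2 ratios that changed sign were all near 0: use against the rest of the gene gave -0.27 for Hnrnpa1, -0.14 for Hnrnpa2b1 and 0.18 for H2afy; a pseudocount of 5 gave -0.0175 for Eef1g and 0.0181 for H2afy; without both libraries numbered 4 they were -0.072 and 0.15; edgeR gave 0.0201 for H2afy. With 1 library left out, ratios ran from -0.21 to 0.0034 for Clta, -0.59 to 0.0379 for Mdm2, -0.13 to 0.0109 for Pecam1, -0.0708 to 0.16 for Eef1g, -0.16 to 0.13 for Rac1, -0.0309 to 0.0457 for Hnrnpa2b1 and -0.11 to 0.13 for H2afy. The cause of these changes was not tested. Of the named junctions' values under these alternatives, 561 kept direction and side of the threshold, 27 changed sign, 5 lost the call and 3 gained it.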
